A study of Rattus norvegicus with 64 samples.

Results

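Col1a1 (ENSRNOG00000003897), Col1a2 (ENSRNOG00000011292) and Col3a1 (ENSRNOG00000003357) encode chains of the fibrillar collagens. They were taken by these gene IDs from the count tables of both brain regions and make up 3 of the 32623 IDs that each table lists. The tables carry IDs without gene names, so that the names given here rest on the list of IDs and not on the tables. Bulk RNA-Seq counts were available for the dorsal hippocampus (HPCd), punched over CA1 and the dentate gyrus, and for the nucleus accumbens (ACB) of the same 32 Sprague Dawley rats. ACE-K rats drank a solution of the low-calorie sweetener acesulfame potassium, at about 15 mg/kg, from postnatal day 26 to postnatal day 80, and control (CTL) rats drank water. Brains were collected at that age, and each region had 8 ACE-K and 8 CTL males (rats C91 to C106) and 8 ACE-K and 8 CTL females (rats C107 to C122). No transgene was used, and the phase of the estrous cycle of the females was not tracked in the study. A punch holds all cell types of the tissue, vessels and their surroundings included, and in such bulk samples fewer cells of a type and less RNA per cell cannot be told apart.

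Fibrillar collagens are built from 3 polypeptide chains that wind into a triple helix, are secreted, and assemble into fibrils outside the cell. Type I collagen usually joins Col1a1 chains with a Col1a2 chain, whereas type III collagen is made of Col3a1 chains alone, and both types often lie in the same fibrils. In the brain, these genes are known mainly from fibroblasts of the meninges and of the spaces around vessels, and the neural tissue itself holds little fibrillar collagen.

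In the HPCd, Col1a1 and Col3a1 were well measured and Col1a2 was not. Col1a1, the more abundant chain of type I collagen, had between 820 and 4195 counts per rat. Col3a1, the chain of type III collagen, had between 495 and 2666 counts per rat. Counting error alone was therefore small, at 2.50% of the value for the median Col1a1 count of 1598.5 and 3.30% for the median Col3a1 count of 916.5. The ID listed as Col1a2, the partner chain of Col1a1, had 0 counts in 29 of 32 rats, 2 counts in the ACE-K male C102, 2 in the ACE-K female C110 and 1 in the CTL male C95. These 5 counts gave 0.00739 CPM (counts per 1000000 counts on genes) over all rats, with an exact Poisson 95% interval of 0.00240 to 0.0173. A count of 0 allows up to 3 counts in a library, which came to between 0.106 and 0.210 CPM per rat. The ID listed as Col1a2 thus had almost no counts in the libraries that held 56479 counts on the Col1a1 ID. Whether this came from the annotation, from the counting of reads or from the transcript itself was not tested, and Col1a2 was not compared between groups. Of all IDs in the table, 13211 (40.5%) had as few counts in all as this ID or fewer.

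The levels of the other chains differed widely among rats of the same group, and males lay above females on average. Their CPM per rat use the normalized library size in place of all counts on genes. In CTL males, Col1a1 ranged from 70.0 CPM in C99 to 129 in C97, with a median of 101.3 and a mean of 98.6 ± 19.8 (SD, n = 8). In ACE-K males, Col1a1 ranged from 81.0 CPM in C106 to 161 in C102, with a median of 102.2 and a mean of 110.9 ± 27.4 (SD, n = 8). The male groups overlapped, with 6 of the 8 ACE-K males inside the range of the CTL males and 2, C92 and C102, above it. In CTL females, Col1a1 ranged from 39.2 CPM in C121 to 91.9 in C109, with a median of 62.2 and a mean of 64.6 ± 18.2 (SD, n = 8). In ACE-K females, Col1a1 ranged from 34.3 CPM in C112 to 81.4 in C122, with a median of 59.1 and a mean of 58.1 ± 15.1 (SD, n = 8). Among the females, 7 of the 8 ACE-K rats lay inside the CTL range and 1, C112, lay below it.

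Col3a1 followed the same order of groups. In CTL males, Col3a1 ranged from 39.0 CPM in C99 to 82.0 in C101, with a median of 58.8 and a mean of 58.2 ± 12.8 (SD, n = 8). In ACE-K males, Col3a1 ranged from 42.8 CPM in C98 to 102.5 in C102, with a median of 63.2 and a mean of 67.0 ± 18.4 (SD, n = 8). C102 was again the highest rat, and the other 7 ACE-K males lay inside the CTL range. In CTL females, Col3a1 ranged from 23.6 CPM in C121 to 47.6 in C109, with a median of 39.4 and a mean of 37.5 ± 8.15 (SD, n = 8). In ACE-K females, Col3a1 ranged from 21.7 CPM in C112 to 48.6 in C122, with a median of 33.5 and a mean of 34.6 ± 9.08 (SD, n = 8). The female groups overlapped, with 6 of the 8 ACE-K females inside the CTL range. The plot of levels by group shows these values for each rat. Col1a1 and Col3a1 levels are not compared with each other here, since counts depend on transcript length and the lengths were not used.

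**Figure D1:**
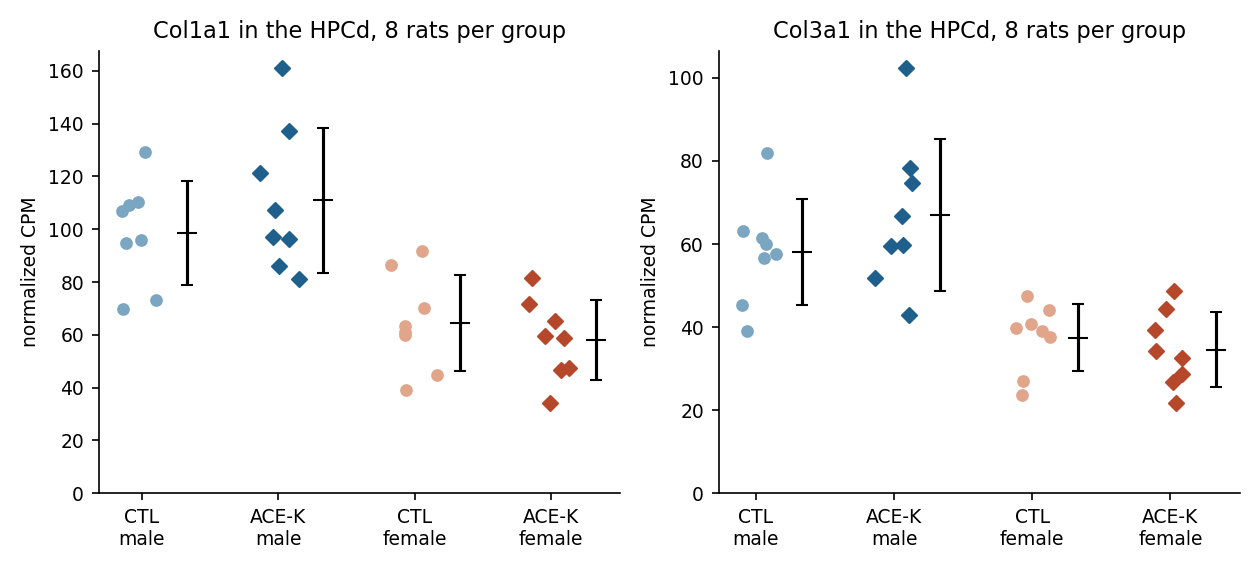
Normalized CPM of Col1a1 (left) and Col3a1 (right) in the HPCd, with 1 point per rat, 8 rats per group (circles, CTL; diamonds, ACE-K) and the mean ± SD beside the points. Group means of Col1a1 were 98.6 and 110.9 in CTL and ACE-K males and 64.6 and 58.1 in CTL and ACE-K females, and the groups of each sex overlap.

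The study tested ACE-K against CTL rats within each sex, across both sexes and for an interaction with sex. It reported collagen-related pathways in the HPCd as upregulated in ACE-K males and downregulated in ACE-K females. Those pathways were not analysed here as sets of genes. Neither chain passed the thresholds for suggestive DEGs used in the study, which are a p under 0.05 before adjustment together with a log2 fold change of 0.4 or more in size, in either sex. In males, Col1a1 had a log2 fold change of 0.17 (ACE-K minus CTL, SE 0.14, 95% interval -0.13 to 0.48, adjusted p = 0.974, edgeR's quasi-likelihood test). Col3a1 had one of 0.21 in males (SE 0.16, interval -0.13 to 0.54, adjusted p = 0.968). These thresholds were passed by 1.33% of the 15704 genes tested in males, and by 0 of the 2 tested chains. In females, Col1a1 had a log2 fold change of -0.16 (SE 0.18, interval -0.53 to 0.21, adjusted p = 0.996), and Col3a1 had one of -0.12 (SE 0.16, interval -0.45 to 0.21, adjusted p = 0.996). In females, 1.34% of the 15651 genes tested passed, and again 0 of the 2 chains. The smallest edgeR adjusted p of any gene was 0.963 in males and 0.996 in females. The adjusted p of the chains therefore does not set them apart from other genes. Single rats moved these estimates in both directions. Without C102, the male log2 fold changes were 0.08 for Col1a1 and 0.10 for Col3a1. In females they were -0.07 and -0.06 without C109, and -0.07 and -0.04 without C112. Leaving out other rats made them larger in size, such as 0.22 and 0.28 in males without C98 and -0.24 and -0.21 in females without C122.

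The estimates were thus above 0 in males and below 0 in females, and this difference between the sexes was tested by itself. The interaction of treatment and sex was -0.33 for Col1a1 (log2, female minus male difference, SE 0.24, 95% interval -0.82 to 0.16, edgeR adjusted p = 0.738) and -0.33 for Col3a1 (SE 0.24, interval -0.81 to 0.16, adjusted p = 0.736). The same thresholds were passed by 2.92% of the 16012 genes for this interaction, and by neither chain. Across both sexes, the log2 fold change was 0.01 for Col1a1 (SE 0.12, interval -0.24 to 0.26) and 0.05 for Col3a1 (SE 0.12, interval -0.20 to 0.29), with adjusted p = 1.00 for both, beside 0.531% of genes that passed. The upper bounds of the intervals in males correspond to levels 1.39 times the CTL level for Col1a1 and 1.46 times for Col3a1, and the lower bounds in females to 0.694 and 0.730 times. Differences as large as these bounds were not excluded with 8 rats per group.

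Females had less of both transcripts than males. In CTL rats, the log2 difference (female minus male) was -0.61 for Col1a1 (SE 0.17, 95% interval -0.96 to -0.26) and -0.64 for Col3a1 (SE 0.17, interval -0.98 to -0.29). Both chains were past an unadjusted p of 0.05 with a log2 fold change of -0.4 or less, as 1.30% of the 16012 genes were. Neither passed an adjusted p of 0.05 in CTL rats by edgeR (adjusted p = 0.184 and 0.157), as 0.0999% of genes did in this direction. With the DESeq2 Wald test on the same genes, Col3a1 passed in CTL rats (adjusted p = 0.0465) and Col1a1 did not (adjusted p = 0.102). Over all alternatives, each rat left out included, the adjusted p in CTL rats ran from 0.0711 to 0.361 for Col1a1 and from 0.0387 to 0.320 for Col3a1. CTL rats of both sexes overlapped. For Col1a1, 5 of the 8 CTL females lay below the lowest CTL male, and for Col3a1 3 of 8 did.

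The difference between the sexes was also computed in ACE-K rats and over both treatments, which was decided after the values in CTL rats were seen. In ACE-K rats, the log2 difference was -0.94 for Col1a1 (SE 0.17, edgeR adjusted p = 0.00368) and -0.96 for Col3a1 (SE 0.17, adjusted p = 0.00229), where 0.244% of genes were lower in females at an adjusted p under 0.05. For Col1a1, 7 of the 8 ACE-K females lay below the lowest ACE-K male, at 81.0 CPM, and the eighth lay at 81.4. For Col3a1, 6 of 8 did. Over both treatments, males had 1.71 times the Col1a1 level of females (95% interval 1.44 to 2.03, edgeR adjusted p = 0.000237). Males had 1.74 times the Col3a1 level (interval 1.47 to 2.06, adjusted p = 0.000109). Both of the 2 tested chains were lower in females at an adjusted p under 0.05, beside 0.762% of all genes. That the difference passed the test in ACE-K rats and not in CTL rats does not show that it was larger there, since that contrast is the interaction of treatment and sex given above. Males and females carried separate runs of rat numbers, so that handling by run and sex cannot be told apart. The number that ends each HPCd column name, called the library number here, is not explained in the labels. With it as a linear covariate, the difference over both treatments was -0.77 for Col1a1 and -0.80 for Col3a1 on the log2 scale. This does not separate handling by run from sex. The plot of differences gives all 7 comparisons.

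**Figure D2:**
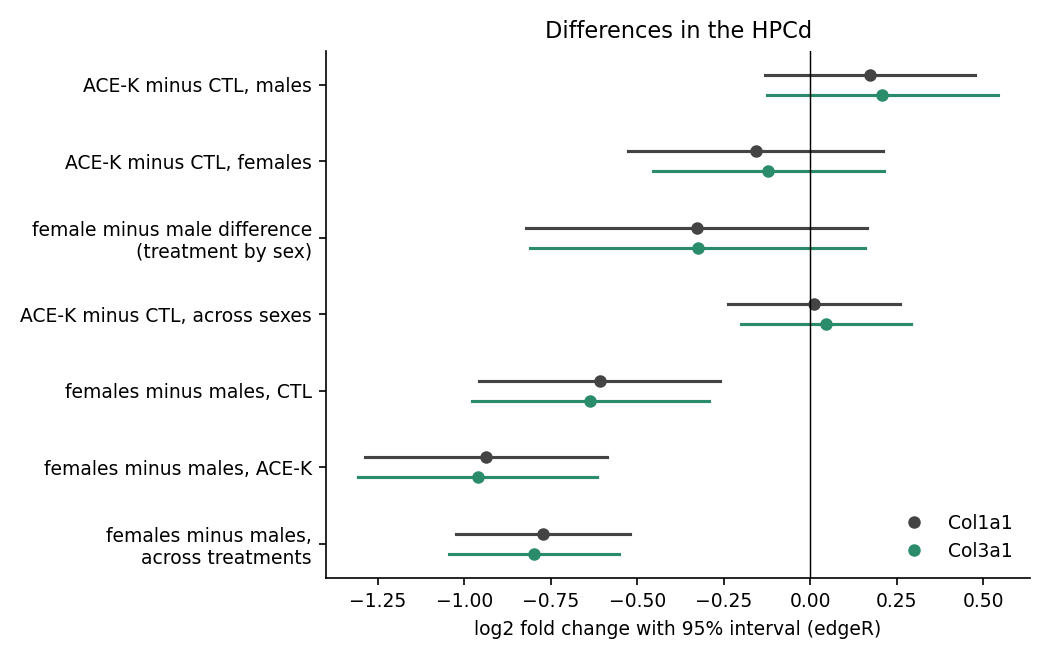
Log2 fold change of Col1a1 (dark) and Col3a1 (green) in the HPCd for each comparison, with 95% intervals from edgeR and a line at 0. The intervals for ACE-K minus CTL and for treatment by sex include 0, and those for females minus males lie below 0, at -0.61 and -0.64 in CTL rats and -0.94 and -0.96 in ACE-K rats.

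Between rats of the same group, Col1a1 and Col3a1 rose and fell together. After group means were subtracted from log2 CPM, Pearson's r between the chains was 0.88 over 32 rats and Spearman's rho was 0.81 (permutation p = 1e-05 for both, the smallest that 100000 resamples can give; adjusted over 5 relations, 5e-05). Without the 2 rats farthest from the median of Col1a1, C112 and C121, r was 0.84. Within groups of 8 rats, r was 0.96 in ACE-K females, 0.88 in CTL females, 0.87 in ACE-K males and 0.78 in CTL males (exact permutation tests, adjusted p = 0.000806, 0.00707, 0.00707 and 0.0211). Spearman's rho was 0.93, 0.79, 0.81 and 0.64 in the same order (exact permutation tests, adjusted p = 0.00558, 0.0349, 0.0349 and 0.0962). Without the 2 rats farthest from the median, r was 0.90 in ACE-K females, 0.70 in CTL females, 0.62 in ACE-K males and 0.09 in CTL males. In CTL males the relation thus rested on C95 and C99, the rats with low values of both chains.

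The ratio of Col3a1 to Col1a1 counts, which needs no normalization for depth, varied less than either chain. It had a median of 0.600 over 32 rats, with the lowest value of 0.453 in the CTL female C115 and the highest of 0.775 in the ACE-K male C104. Its mean was 0.594 ± 0.087 (SD, n = 8) in CTL males, 0.605 ± 0.084 in ACE-K males, 0.592 ± 0.080 in CTL females and 0.596 ± 0.045 in ACE-K females. The 4 means lay closer to each other than the SD of any group. The levels themselves spanned 4.71-fold from the lowest to the highest rat for each chain, from C112 to C102. In the plot of the pair, ACE-K male C102 lies highest on both axes and ACE-K female C112 lowest.

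**Figure D3:**
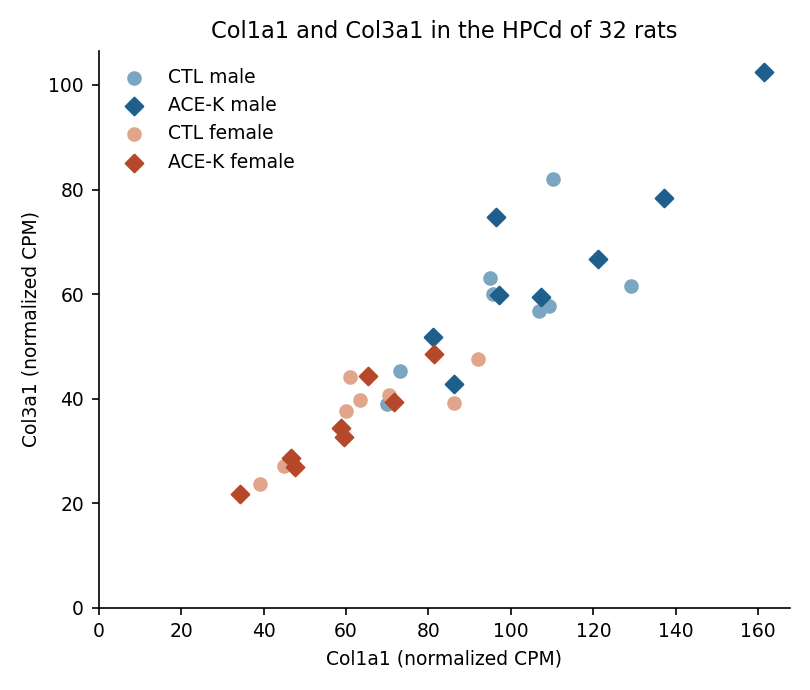
Normalized CPM of Col1a1 (horizontal) and Col3a1 (vertical) in the HPCd, with 1 point for each of 32 rats (circles, CTL; diamonds, ACE-K; blue, males; red, females). The points lie along a band from C112 (34.3 and 21.7 CPM) to C102 (161 and 102.5 CPM), and r was 0.88 after group means were subtracted.

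Both chains varied more between rats than most genes of like abundance. The SD of log2 CPM within groups was 0.37 for Col1a1, beside a median of 0.09 over the 3615 genes with 0.5 to 2 times its mean CPM, and 98.7% of those genes had a smaller SD. For Col3a1 the SD was 0.36, beside a median of 0.10 over 4522 such genes, of which 98.1% had a smaller SD. The coefficient of variation of CPM over a group of 8 was between 20.1% and 28.2% for Col1a1 and between 21.8% and 27.5% for Col3a1, many times the counting error.

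Other genes moved with the chains. Each of the other 16010 tested IDs was correlated with the mean log2 CPM of Col1a1 and Col3a1 over 32 rats, with group means subtracted, as a description. Among all IDs, Col3a1 ranked 5 by its correlation with Col1a1, and Col1a1 ranked 3 by its correlation with Col3a1. The IDs most like the pair were ENSRNOG00000013720 (r = 0.92) and ENSRNOG00000001254 (r = 0.92). For these IDs, r was 0.96 and 0.91 in males and 0.89 and 0.93 in females. The lowest correlations were those of ENSRNOG00000016770 (r = -0.68) and ENSRNOG00000014330 (r = -0.66). In all, 95 IDs (0.593%) had r over 0.7 and 0 had r under -0.7, and 651 (4.07%) had r over 0.5 beside 126 (0.787%) under -0.5. The histogram of correlations shows this longer upper tail. All points share the libraries with the chains, and no gene names were at hand to say what these IDs are.

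**Figure D4:**
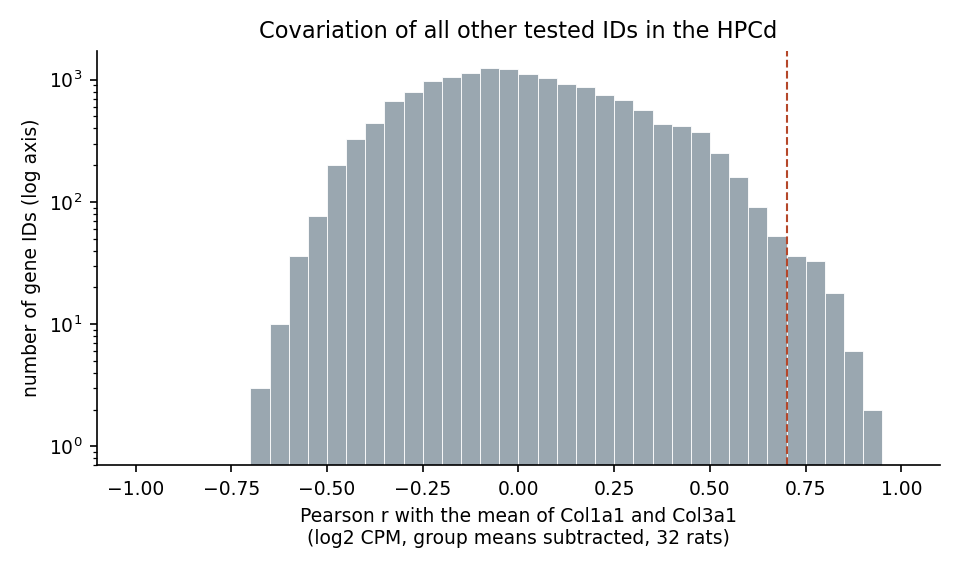
Number of gene IDs (log axis) by Pearson's r with the mean log2 CPM of Col1a1 and Col3a1 in the HPCd, over 32 rats with group means subtracted. The dashed line marks r = 0.7, above which 95 of 16010 IDs lie, while 0 lie under -0.7.

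The set of IDs that moved with the chains was partly shared between the sexes, whose rats are separate. Of the 100 IDs with the highest r in males and the 100 with the highest r in females, 33 were on both lists. The male list had a median r of 0.65 in females, where the median over all IDs was -0.02, and the female list had a median r of 0.71 in males, where it was 0.02. The 100 IDs with the highest r over 32 rats, down to 0.70, are described by sex next. Over both treatments, 100 of 100 had a negative log2 difference (female minus male), as 53.1% of all genes did, with a median of -0.42 beside -0.01 for all genes, and 46 were lower at an edgeR adjusted p under 0.05, beside the 0.762% given above. The IDs were chosen for moving with the chains in the same rats. Neither their sex differences nor their treatment differences are therefore evidence independent of the chains. In males 84 of the 100 were higher in ACE-K rats (50.8% of all genes), with a median log2 fold change of 0.09. In females 25 were higher (51.7% of all genes), with a median of -0.05. None of the 100 passed the thresholds for suggestive DEGs in either sex with edgeR. At an unadjusted p under 0.05 alone, 1 of the 100 passed in males, beside 804 of all 15704 genes. In females 0 passed, beside 648 of all 15651 genes. The difference between the sexes was not tested for the list.

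Of the 12 relations of the chains with other measures, the largest correlations in size were those with the first principal component of the HPCd. This component was computed after group means were subtracted, and held 63.2% of the remaining variance of the 500 genes that varied most within groups. It came from the same libraries, with only the listed chains left out. Genes that moved with the chains were not removed, so that its relation to the chains is not separate from the covariation above. With group means subtracted, r with it was -0.47 for Col1a1 (rho -0.50) and -0.51 for Col3a1 (rho -0.46). Over the 12 relations tested, the adjusted permutation p of r was 0.0440 and 0.0328, and that of rho was 0.0466 and 0.0514. The shuffling ran over all rats without allowance for the subtracted group means, which makes these p somewhat too small. Values this near 0.05 therefore do not settle the relation. Without the 2 rats farthest on the component, C101 and C120, r was -0.49 and -0.50. The component was also added as a covariate, a choice made after the data were seen, and it can take up variation that the chains share with such genes. By construction the component has the same mean in each group, so that it could hardly move the differences between groups. No treatment call of either chain changed, which is therefore a weak check. In CTL rats Col3a1 passed for sex (log2 difference -0.63, edgeR adjusted p = 0.0387).

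Body weight at collection, from 330.8 to 393.1 g in males and from 211.8 to 270.1 g in females, did not pass a test with either chain. With group means subtracted, r was 0.32 for Col1a1 (rho 0.25, adjusted permutation p = 0.246 for r and 0.399 for rho) and 0.22 for Col3a1 (rho 0.19, adjusted p = 0.386 and 0.458). Without the 2 rats farthest in weight r was 0.34 and 0.25. Within males r was 0.24 and 0.16, and within females 0.39 and 0.28. Body weight and sex cannot be told apart in the difference between sexes, since the weights did not overlap. The library number, the counts on genes and the share of reads on no gene (from 20.3% to 24.3%) had r between -0.23 and 0.14 with the chains and an adjusted permutation p of at least 0.386 for r. Without the 2 rats farthest on each of these measures, r lay between -0.24 and 0.38.

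In the ACB, the counts were too low for the chains to be compared across genes. Counts on genes were between 255545 and 416869 per rat in the ACB, against 14304052 to 28292936 in the HPCd. No chain passed the filter on low counts there, which 5262 genes passed in males and 5154 in females. Col1a1 had 35 counts over 32 rats, with 0 in 14 rats and at most 4, in the CTL female C115. Col3a1 had 24 counts, with 0 in 16 rats and at most 3, in the CTL male C101 and the ACE-K female C122. The ID listed as Col1a2 had 0 counts in all 32 rats, and a count of 0 allows up to 3 counts, or up to 11.7 CPM, per rat. By group, Col1a1 had 7 counts in CTL males, 8 in ACE-K males, 12 in CTL females and 8 in ACE-K females. Col3a1 had 8, 6, 3 and 7 counts in the same order.

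The treatment groups of the ACB were compared by 2-sided exact permutation tests of the mean CPM, over all assignments of the 16 rats of a sex. In males, Col1a1 was at 3.09 ± 3.40 CPM in ACE-K and 2.74 ± 4.01 in CTL rats (SD, n = 8, exact permutation p = 0.869). Col3a1 was at 2.36 ± 2.84 in ACE-K and 2.82 ± 3.21 in CTL males (SD, n = 8, exact permutation p = 0.743). In females, Col1a1 was at 3.16 ± 3.89 in ACE-K and 4.90 ± 4.47 in CTL rats (SD, n = 8, exact permutation p = 0.429), and Col3a1 at 2.81 ± 3.17 and 1.06 ± 1.46 (SD, n = 8, exact permutation p = 0.126). The SD was about as large as the mean or larger in most groups, and no difference was detected. The chains of the HPCd and the ACB of the same rat had r = 0.22 for Col1a1 (rho 0.19) and 0.31 for Col3a1 (rho 0.33), with group means subtracted, and an adjusted permutation p of 0.386 and 0.246 for r and of 0.458 and 0.263 for rho over the same 12 relations. Without the 2 rats farthest on the ACB measure, r was 0.17 and 0.19.

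The counts of both chains in the ACB were also low for the depth of its libraries. At the share of counts that each chain had in the HPCd of the same rat, the ACB libraries would hold 890.6 counts of Col1a1 in all, against 35 counted, and 530.9 of Col3a1, against 24. In 32 of 32 rats each chain lay below that number, which ranged from 10.7 to 57.2 counts for Col1a1 and from 6.80 to 36.4 for Col3a1. As shares of all counts on genes, Col1a1 was at 3.27 CPM over all ACB libraries (exact Poisson 95% interval 2.28 to 4.55) and 83.5 in the HPCd (82.8 to 84.2). Col3a1 was at 2.25 CPM in the ACB (1.44 to 3.34) and 49.9 in the HPCd (49.4 to 50.4), and these intervals cover counting error only. The ACB share was 3.92% of the HPCd share for Col1a1 and 4.50% for Col3a1. Most other genes had lower shares in the ACB table too, with a median of 13.1% over the 9476 IDs at 10 CPM or more in the HPCd, of which 4.41% had a lower ratio than Col1a1 and 6.32% a lower one than Col3a1. The regions were deposited as separate tables with very different depths, so that region and library processing cannot be told apart.

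**Figure D5:**
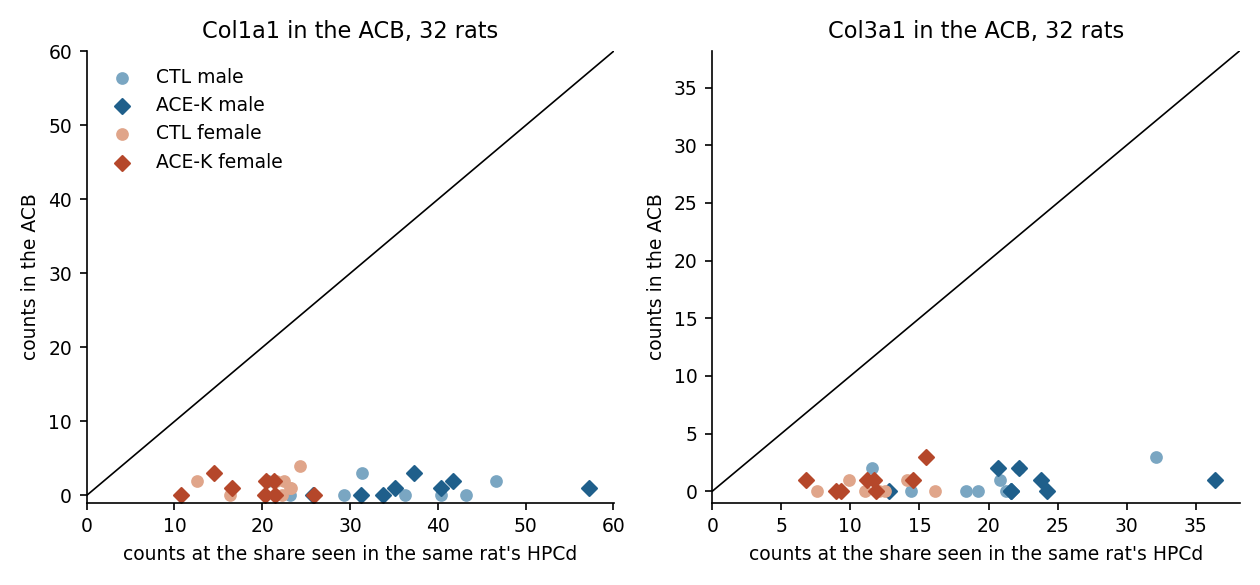
Counts of Col1a1 (left) and Col3a1 (right) in the ACB of each of 32 rats (vertical) against the counts that the share in the same rat's HPCd would give at the ACB depth (horizontal), with a line where both are equal. Each rat lies below the line, with at most 4 counts of Col1a1 and 3 of Col3a1.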

How the data were processed

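Libraries of punched tissue were made in the study with the NuGen Universal Plus mRNA-seq kit and sequenced as single reads. The authors trimmed the reads with Trimmomatic, aligned them to Rnor6.0 with STAR and used HTSeq to count reads on genes. The deposited values are these raw counts, in 1 table per region. Tool versions, the annotation release and the strand setting are not given in the sources used here, so that reads of overlapping antisense genes cannot be told apart.

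From these counts, differences were tested with edgeR 4.0.16 (R 4.3.3) by quasi-likelihood after TMM normalization, where the study used DESeq2. Genes entered a fit if their normalized count reached 5 in 3 or more of its rats, and p values were adjusted over all of them by the Benjamini-Hochberg method. Treatment was fitted within each sex, and the other comparisons in all 32 rats. DESeq2 1.42.0 was an alternative. CPM use the normalized library size, with a prior count of 2 for log2 CPM. Permutation tests were 2-sided. Those over 32 rats shuffled values with group means subtracted, without allowance for the means, so that their p are somewhat too small. Rats of a group differed by more than sampling noise (chi-square per degree of freedom of at least 1.58 over IDs with at least 50 counts in a pair), so each counted as 1 replicate.

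The members and lists were chosen with earlier results of these data known. The rule for naming was the 3 chains, the genes most and least like them (given here as 2 IDs each), and members of pathway and cell type lists with 189 symbols. With the tables at hand 0 of these symbols could be matched to the IDs, so those lists, with the markers of other cell types, were not analysed here. No ACB sample was left out, whereas the study removed 1 ACE-K sample.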

Additional observations from a re-analysis of the deposited data

How the results depend on the processing

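With DESeq2 in place of edgeR, with its size factors, without a filter, with at least 10 counts required in each sample and with the library number as a covariate, no treatment or interaction call of Col1a1 or Col3a1 changed and no sign turned. Within each sex, none changed either with all 4 groups fitted together or in exact permutation tests on log2 CPM, which were not run for the interaction or across sexes. Treatment and interaction calls and signs were also kept with the first principal component as a covariate, which was added after seeing the data. By construction this component has the same mean in each group, so that the kept signs are no check of the differences. For sex in CTL rats, Col3a1 passed an adjusted p of 0.05 with DESeq2 (log2 difference -0.63) and with the first component (-0.63). Leaving out each rat gave, for Col1a1 and Col3a1, log2 fold changes from 0.08 to 0.24 and from 0.10 to 0.29 in males and from -0.24 to -0.07 and from -0.21 to -0.04 in females. It gave -0.42 to -0.23 and -0.41 to -0.21 for the interaction, -0.044 to 0.059 and -0.016 to 0.088 across sexes, and -0.70 to -0.52 and -0.70 to -0.55 for sex in CTL rats. It gave -1.02 to -0.84 and -1.05 to -0.85 in ACE-K rats and -0.82 to -0.72 and -0.84 to -0.74 over both treatments, where each call held. The covariation of the chains had r from 0.86 to 0.90 with each rat left out, and from 0.83 to 0.95 under the other settings.

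Counts of genes called moved more. Without a filter, 451 genes were called in males (209 with the filter), 514 in females (210), 831 for the interaction (468) and 446 across sexes (85). With at least 10 counts in every sample, 71, 82, 295 and 5 were called, and 4 were lower in CTL females (16 with the filter). DESeq2 called 41 in CTL and 92 in ACE-K rats (39 with edgeR), and the first component as a covariate gave 57, 151, 307 over both treatments and 129 for treatment across sexes. Leaving out each rat gave 183 to 268 genes in males, 133 (without C107) to 276 in females, 384 to 561 for the interaction, 67 to 138 (without C102) across sexes and 88 to 157 for sex over both treatments. For sex in CTL rats it gave 8 to 21, with 8 without C103, 10 without C93 or C101 and 9 without C107, C119 or C121. In ACE-K rats it gave 24 to 79, with 79 without C98, 24 without C102 or C112 and 25 without C108 or C118. The cause was not tested. In the ACB, leaving out each rat gave differences in CPM from -0.58 to 1.40 (Col1a1) and -1.05 to 0.18 (Col3a1) in males and from -2.69 to -0.45 and 0.78 to 2.15 in females, with an exact permutation p of at least 0.0970. An edgeR fit of the ACB without a filter gave log2 fold changes (ACE-K minus CTL) of 0.19 for Col1a1 and -0.32 for Col3a1 in males. In females they were -0.53 and 1.01, and the unadjusted edgeR p was at least 0.224 in both sexes. The ACB has no fit under the DESeq2 test, the 4-group fit, the stricter filter or the library number, since no chain passed the filter and its columns carry no library number. Treatment and sex were compared between different rats, whose replicate numbers only name them within a group, and only the regions were paired, by rat.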
